A study of Homo sapiens with 4 samples.

Results

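The expression of 43 interferon-stimulated genes was examined in FaDu cells, an established line from a squamous carcinoma of the hypopharynx. The genes were chosen by symbol, as the rows of the expression table that carry one of 43 fixed names and lie on a standard chromosome. The names were chosen with earlier results of these data known, so counts over them describe this list and are not a test of it. All 43 names were found, among 62077 rows in all, and all 43 had a mean level of at least 1 FPKM over the libraries. FPKM are fragment counts scaled by exon length and by depth, so that levels of different genes can be compared per length.

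The study asked which genes respond to hypoxia through TET1, an enzyme that oxidises 5-methylcytosine in DNA. Per the study's methods both arms were infected with lentivirus (pLKO.1-puro) expressing a short hairpin RNA, either against TET1 (TET1-si) or scrambled, so that the controls too had met a viral vector. Normoxia was air with 5% CO2 at 37°C, and hypoxia was 19 h at 1% oxygen, with the same CO2 and a balance of 94% nitrogen. One library was made for each of the 4 groups, named here N-scr (normoxia, scrambled control), H-scr (hypoxia, scrambled control), N-si (normoxia, TET1-si) and H-si (hypoxia, TET1-si).

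With 1 library in each group, no difference could be set against a spread between replicates, and p-values were not computed. A gene was counted as higher or lower when log2(FPKM + 0.1) differed by at least 1 (2-fold), and counts over the 43 members are set beside the share of all 15057 genes with a mean of at least 1 FPKM that passed the same limit. Counts within a role or a list are small and are to be read against the same shares. Brackets hold exact 95% counting intervals of a log2 ratio. They rest on reads recovered from the FPKM, without the added 0.1, so for low genes they need not centre on the difference printed. They say nothing about differences between cultures. The depth was 22840000 (N-scr), 24520000 (H-scr), 24410000 (N-si) and 22410000 reads (H-si), and a member rested on 35 to 24329 reads in a library. TET1 itself was low, at 0.129 (N-scr), 0.331 (H-scr), 0.0493 (N-si) and 0.122 FPKM (H-si), or about 28, 76, 11 and 26 reads. It was lower after TET1-si in both oxygen states, and its level in H-si lay close to that in N-scr.

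Type I and type III interferons are secreted when cells sense foreign or misplaced nucleic acid. They bind receptors at the cell surface and activate the kinases JAK1 and TYK2. These phosphorylate STAT proteins, among them STAT2, which acts with IRF9 in the factor ISGF3. ISGF3 binds the interferon-stimulated response element (ISRE), in which GAAA blocks are set a few bases apart, and so switches on genes that block viral entry, degrade viral RNA or modify proteins.

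The ISRE was searched for from 250 bases before to 50 bases after the annotated start of each gene (RefSeq, GRCh38.p14), on both strands. Of the 43 members, 34 had an entry in the promoter table, where DDX58 is listed as RIGI. The remaining 9 were DHX58, IRF7, USP18, IFIT2, IFITM2, MX2, OAS2, OASL and TRIM22. An ISRE of a pair of GAAA blocks with 2 free bases between them stood in 23 of the 34 members (67.6%) and in 4.38% of 27305 genes in the table. The form with 3 free bases between the blocks stood in 6 members (17.6%) against 3.54% of genes, and matches of both forms can overlap. In all, 24 members held either form. The gamma-activated sequence (GAS), TTCNNNGAA, which reads the same on both strands, stood in 11 members (32.4%) against 9.38% of genes. The core of the hypoxia response element, ACGTG or GCGTG, stood in 14 members (41.2%) against 52.4% of genes. A match is a run of letters and not a measured binding site.

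For 14 members the ISRE nearest to the start, of those that lie wholly before it, is printed with its GAAA blocks in capitals, read 5′ to 3′ on the strand given. The first 10 are members whose level was lower in H-si than in H-scr, and the last 4 are members whose level was not.

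IFIT1 (chr10:89392503-89392532, minus strand): aggGAAAccGAAAgggGAAAgtGAAActaa
IFI27 (chr14:94110631-94110660, plus strand): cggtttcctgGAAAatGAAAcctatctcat
IFI44L (chr1:78620365-78620394, plus strand): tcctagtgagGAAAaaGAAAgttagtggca
IFI6 (chr1:27672266-27672295, minus strand): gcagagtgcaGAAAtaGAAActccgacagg
ISG20 (chr15:88638937-88638966, plus strand): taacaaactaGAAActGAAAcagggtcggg
OAS3 (chr12:112938321-112938350, plus strand): agaaagaaacGAAActGAAAgcagggaatt
IFITM1 (chr11:313990-314019, plus strand): caaacagcagGAAAtaGAAActtaagagaa
MX1 (chr21:41431844-41431873, minus strand): tttattcacgGAAAgaGAAAcagagtgacc
PARP9 (chr3:122564322-122564351, plus strand): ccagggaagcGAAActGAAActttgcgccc
ISG15 (chr1:1013377-1013406, plus strand): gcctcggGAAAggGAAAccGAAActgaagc
BST2 (chr19:17405738-17405767, minus strand): tttctggGAAActGAAActGAAAacctaat
RSAD2 (chr2:6877618-6877647, minus strand): acatgtGAAActGAAAgttGAAAcagggcc
EPSTI1 (chr13:42992272-42992301, minus strand): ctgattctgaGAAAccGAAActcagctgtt
LGALS3BP (chr17:78979962-78979991, minus strand): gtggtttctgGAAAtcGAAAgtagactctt

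Among the 14 printed, that of IFITM1 is the closest to the start, its first block beginning at base -40, and that of MX1 the farthest, at base -196. OAS3 and IFITM1 have a further match that crosses the start, and MX1, which has more than 1 annotated start, has one that begins 12 bases after another of them. IFIT1, ISG15, BST2 and RSAD2 have more than a pair of matching blocks in the 30 bases.

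**Figure D1:**
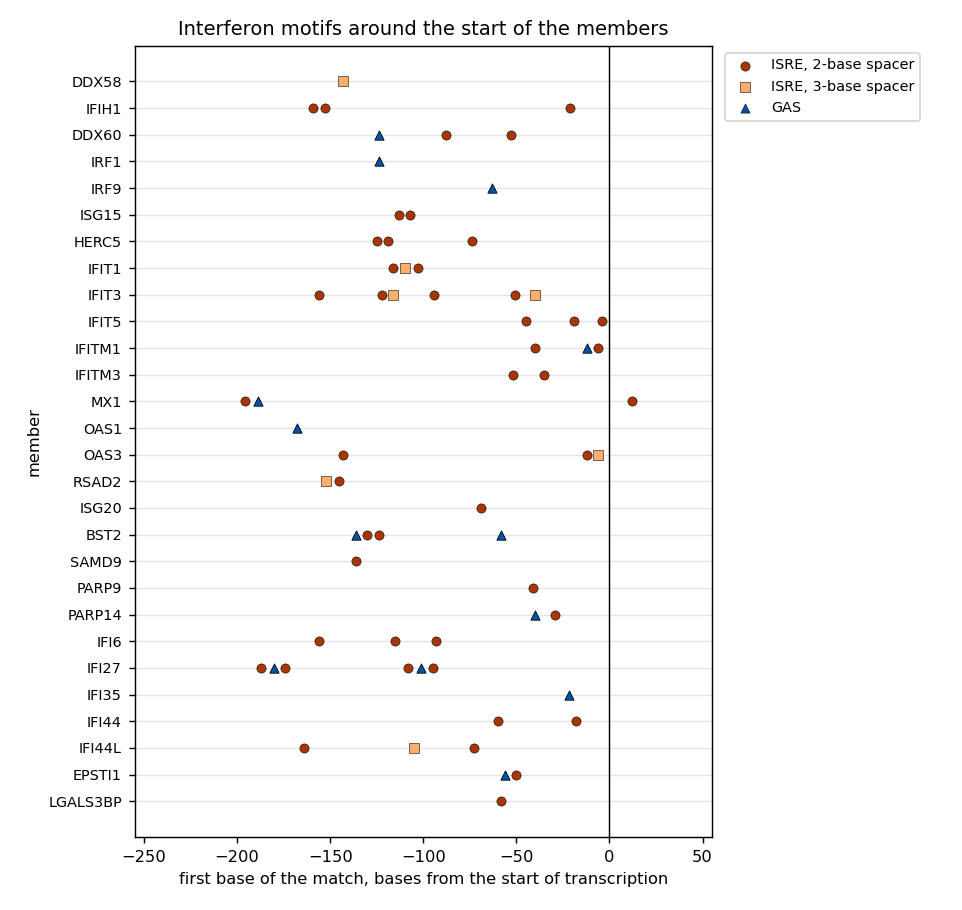
Position of ISRE matches (2-base and 3-base spacer) and of the gamma-activated sequence (GAS) in the window around the annotated start of the members with a promoter entry, in bases from the start. The ISRE with 2 free bases stands in 23 of 34 members, and each of the 24 members with either form has a match before the start.

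As a group the members were highest in hypoxic scrambled cells. Their median level was 16.9 (N-scr), 62.9 (H-scr), 20.0 (N-si) and 30.2 FPKM (H-si). Summed over the 43 members, the level was 1702 (N-scr), 4817 (H-scr), 2011 (N-si) and 2692 FPKM (H-si), or 0.207%, 0.635%, 0.253% and 0.372% of all FPKM. The median over all genes moved little, from 11.6 FPKM in N-scr to 12.5, 13.3 and 13.5 in H-scr, N-si and H-si. H-scr held the highest level of 37 members, against 17.6% of all genes. The exceptions were BST2, TRIM22, EPSTI1, RSAD2 and LGALS3BP, highest in H-si, and IFITM2, highest in N-si. N-scr held the lowest level of 25 members (35.5% of all genes), N-si of 14 (16.7%) and H-si of 4 (25.9%).

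**Figure D2:**
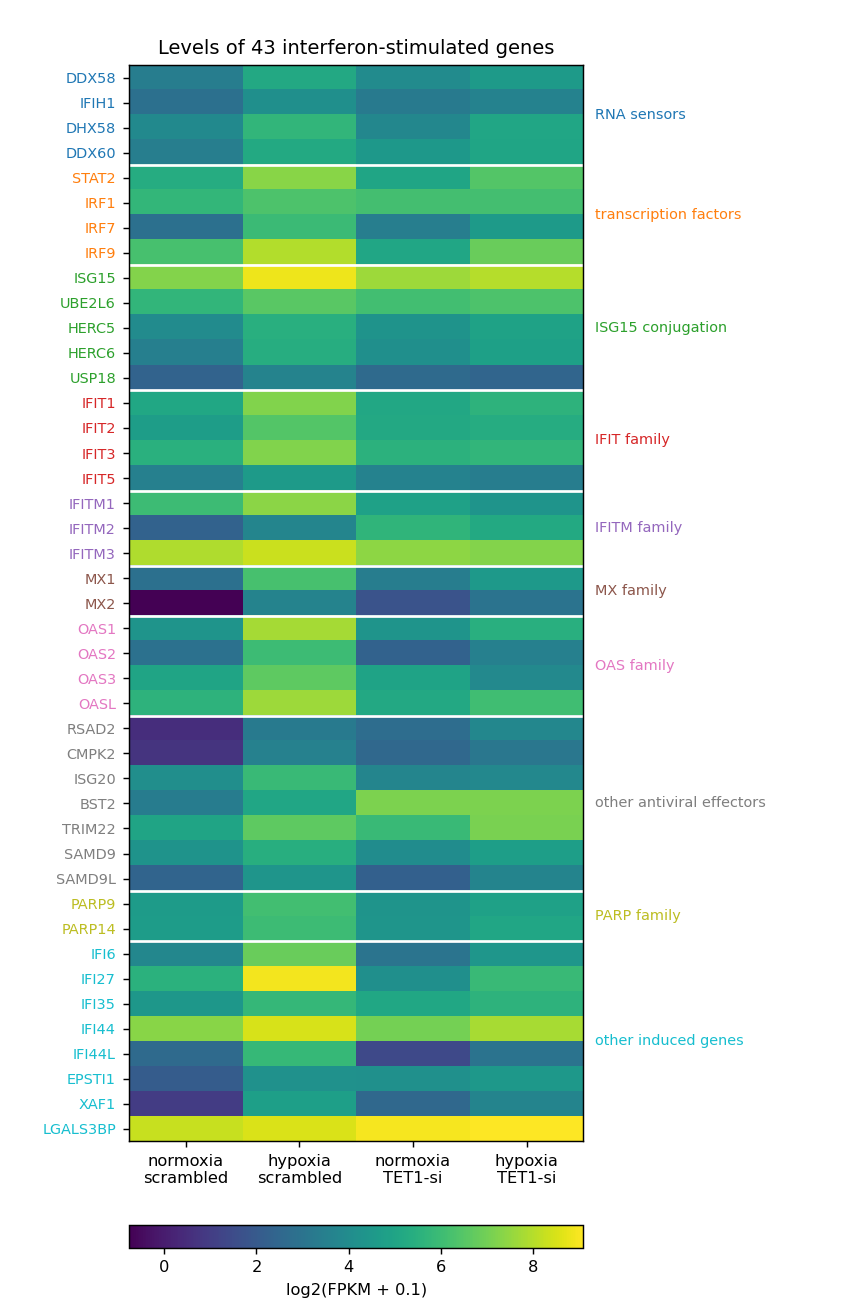
Level of each of the 43 members in the 4 libraries, as log2(FPKM + 0.1), ordered by role. H-scr is the highest of the 4 libraries for 37 members.

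Under hypoxia in scrambled cells 39 of 43 members were at least 2-fold higher, against 12.9% of all genes, and 0 were at least 2-fold lower, against 4.53%. The median difference of H-scr against N-scr was 1.74 on the log2 scale (3.33-fold), with a range of 0.27 to 4.43, and it was 1.69 relative to the median of all genes. All 43 differences were above 0, against 52.9% of all genes. Their counting intervals did not include 0, and the share of all genes for which this holds was not computed. The 4 members under 2-fold were UBE2L6, IRF1, IFITM3 and LGALS3BP.

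In TET1-si cells the difference between hypoxia and normoxia was smaller. Here 15 of 43 members were at least 2-fold higher in H-si than in N-si, against 12.5% of all genes, and 1 member, OAS3, was at least 2-fold lower, against 8.66%. The median was 0.61, or 0.58 relative to all genes, and 37 members were above 0, against 51.5% of all genes. The counting interval included 0 for IRF1, USP18, ISG20 and BST2. In both knockdown states 15 members were at least 2-fold higher under hypoxia, against 6.73% of all genes, and 0 were lower in both, against 2.34%.

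The difference between the hypoxia responses, TET1-si less scrambled, was -1 or below for 27 members, against 7.86% of all genes, and 1 or above for 0 members, against 4.87%. Its median was -1.28, and it was below 0 for 42 of the 43 members and for 55.4% of all genes. IRF9 was the member above 0, at 0.06. With 1 library in each group this difference could not be tested.

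**Figure D3:**
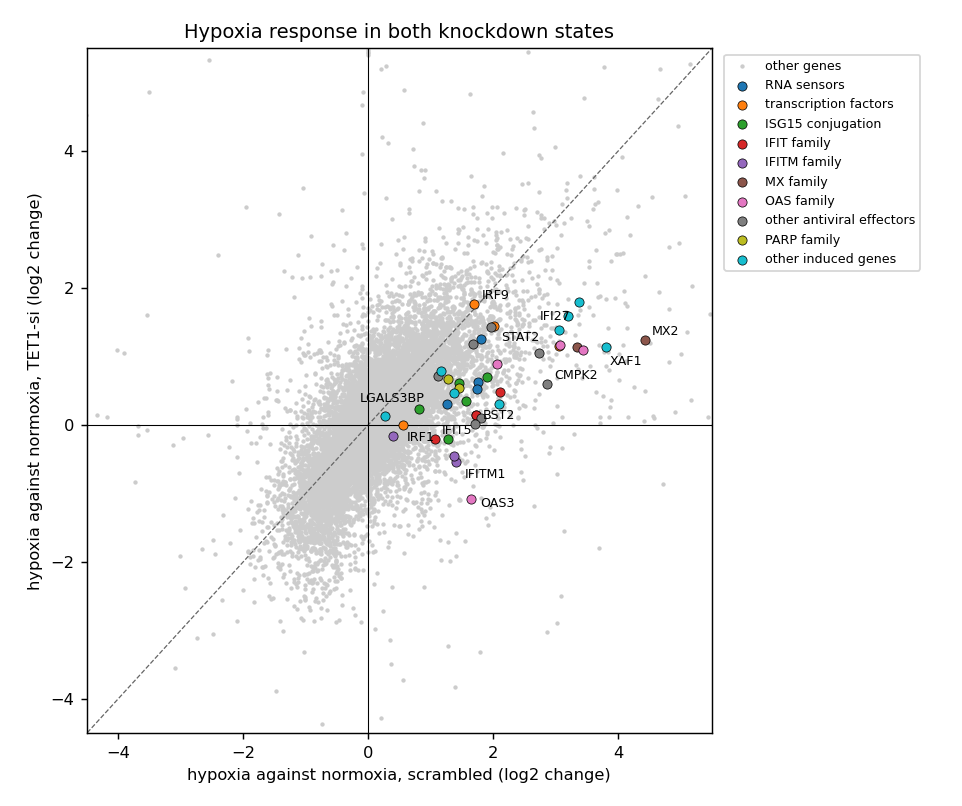
Hypoxia response of each gene in scrambled cells (x axis) and in TET1-si cells (y axis), as differences of log2(FPKM + 0.1), with the members coloured by role, all other genes with a mean of at least 1 FPKM in grey and a dashed line of equal responses. All members lie at or above 0.27 on the x axis and 42 of 43 lie below the line, while 297 grey genes lie beyond the axes and are not drawn.

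Under hypoxia, 20 members were at least 2-fold lower in TET1-si than in scrambled cells, against 8.35% of all genes. Only BST2 and IFITM2 were at least 2-fold higher, against 12% of all genes. The median difference of H-si against H-scr was -0.90, or -0.999 relative to all genes, with a range of -3.05 (IFITM1) to 2.08 (BST2). Below 0 were 37 members, against 42.9% of all genes. Under normoxia no such shift was seen in the group as a whole. There 8 members were at least 2-fold higher in N-si than in N-scr (12.1% of all genes) and 4 were at least 2-fold lower (5.56%), with a median of 0.30, or 0.15 relative to all genes. The 8 were BST2, IFITM2, MX2, RSAD2, EPSTI1, CMPK2, XAF1 and DDX60, of which DDX60 fell short of 2-fold under median-of-ratios (0.87) and upper-quartile scaling (0.86) and with a pseudocount of 1 (0.98). The 4 were IFI27, IFI44L, IRF9 and IFITM1, and these were also the 4 members lower by at least 2-fold in both oxygen states, against 3.06% of all genes. BST2 and IFITM2 were the 2 members higher in both, against 6.51%. H-scr enters both the hypoxia response of scrambled cells and the TET1-si response under hypoxia, so a high level in that library raises the first and lowers the second.

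**Figure D4:**
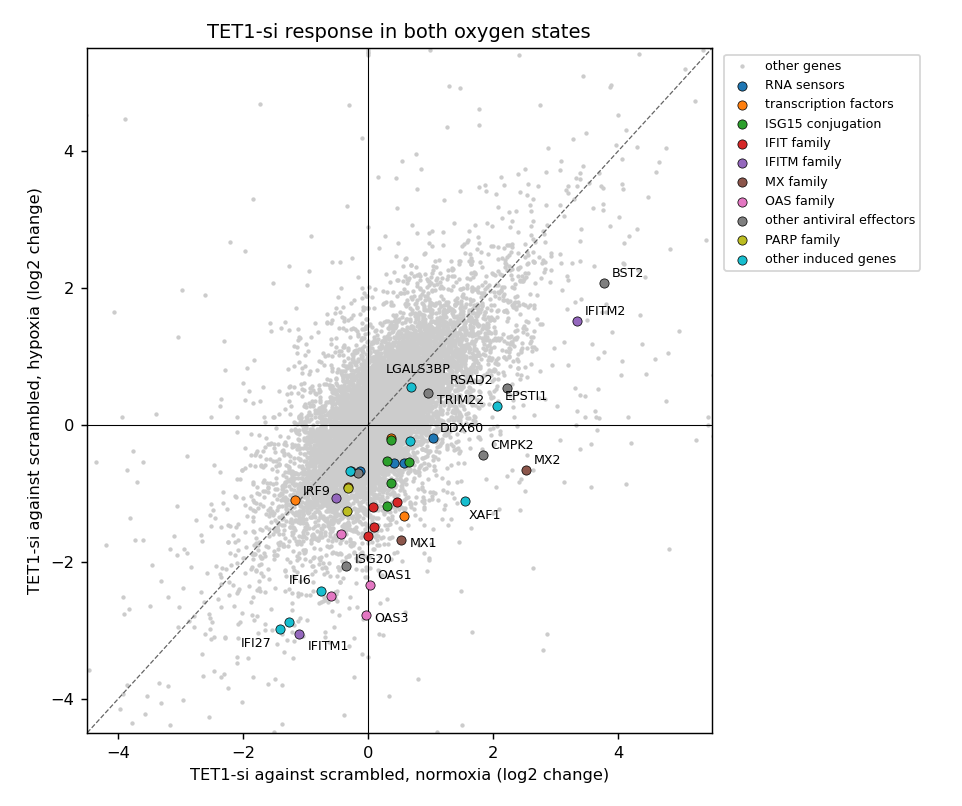
TET1-si response of each gene under normoxia (x axis) and under hypoxia (y axis), as differences of log2(FPKM + 0.1), with the members coloured by role and all other genes with a mean of at least 1 FPKM in grey. Under hypoxia 37 of 43 members lie below 0, down to -3.05 for IFITM1, while BST2 and IFITM2 lie at the upper right, and 339 grey genes lie beyond the axes and are not drawn.

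The study selected genes by 3 inequalities, namely a level in H-scr above 2 times that in H-si, a level in H-scr above N-scr, and a level in N-scr at or above N-si. Of the 43 members 11 met all 3, against 4.33% of all rows and 3.84% of genes with a mean of at least 1 FPKM. Under median-of-ratios scaling 17 members met them. The 11 were IRF9, IFITM1, IFITM3, OAS2, OAS3, OASL, ISG20, PARP9, IFI6, IFI27 and IFI44L.

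The first role is that of RNA sensors, helicases that detect viral RNA in the cytoplasm. All 4 were at least 2-fold higher in H-scr than in N-scr, and 0 of 4 were at least 2-fold lower in H-si than in H-scr. DDX58, which encodes RIG-I, stood at 10.5 (N-scr), 35.9 (H-scr), 15.8 (N-si) and 24.5 FPKM (H-si). IFIH1, which encodes the sensor MDA5, followed the same order at 7.24, 17.6, 9.65 and 12.0 FPKM. DHX58, which encodes LGP2, a regulator of those sensors, stood at 15.1, 53.2, 13.8 and 33.3 FPKM, and it was the sensor with the largest hypoxia response in TET1-si cells, at 1.26 [1.15, 1.39]. DDX60, a helicase related to them, stood at 10.8, 36.7, 22.3 and 32.3 FPKM. Its N-si level was 2.06-fold that of N-scr, and its level in H-si nearly matched that in H-scr (-0.18 [-0.24, -0.13]).

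The transcription factors include 2 subunits of ISGF3, STAT2 and IRF9. STAT2 stood at 40.2 (N-scr), 163 (H-scr), 32.1 (N-si) and 87.4 FPKM (H-si). IRF9, the DNA-binding subunit, stood at 75.2, 245, 33.6 and 115 FPKM. Both were high in the hypoxic libraries and low in the normoxic ones, and both were lower after TET1-si in each oxygen state. The TET1-si response of STAT2 was -0.90 under hypoxia and -0.32 under normoxia. The 50 expressed genes nearest to STAT2 that are not members had medians of -0.63 and -0.41. Around IRF9 these medians were 0.07 and 0.14. Whether the surroundings bear on the STAT2 level was not tested. For IRF9 the hypoxia response was nearly equal in scrambled (1.70 [1.64, 1.77]) and TET1-si cells (1.77 [1.67, 1.87]), and H-si against H-scr (-1.10) was nearly equal to N-si against N-scr (-1.16). A transcript annotated from RNF31 spans the IRF9 locus on the same strand, with levels of 1.66 to 2.40 FPKM. IRF7, which amplifies interferon production, stood at 7.27, 61.5, 10.9 and 24.4 FPKM, so that H-scr was 8.45-fold above N-scr and H-si 2.23-fold above N-si. IRF1, a factor strongly induced by type II interferon, varied least, at 54.3, 80.4, 70.0 and 70.5 FPKM, and its 2 TET1-si libraries did not differ beyond counting error.

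ISG15 is a ubiquitin-like protein that is attached to other proteins through the conjugating enzyme UBE2L6 and the ligase HERC5, and USP18 removes it. ISG15 stood at 155 (N-scr), 461 (H-scr), 200.4 (N-si) and 256 FPKM (H-si). UBE2L6 stood at 53.3, 94.4, 68.5 and 80.8 FPKM, a narrow range with H-scr highest. HERC5 stood at 15.9, 43.7, 19.8 and 30.2 FPKM and its neighbour HERC6 at 11.1, 41.4, 17.4 and 28.5 FPKM. All 4 kept the order N-scr, N-si, H-si, H-scr from low to high. USP18, also a brake on the interferon receptor, was low, at 5.00, 12.2, 6.18 and 5.35 FPKM, and only its H-scr level stood apart (H-si against H-scr -1.18 [-1.44, -0.96]). It was the 1 member of the 5 that was at least 2-fold lower in H-si than in H-scr.

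The IFIT genes encode proteins that bind foreign RNA and block its translation. They lie side by side on chromosome 10 (hg19, IFIT2 at chr10:91061712-91069033, IFIT3 at chr10:91087651-91100728, IFIT1 at chr10:91152303-91163745 and IFIT5 at chr10:91174343-91180758). IFIT1, with the 4 GAAA blocks printed above, stood at 34.7 (N-scr), 149.8 (H-scr), 34.9 (N-si) and 49.0 FPKM (H-si). IFIT2 stood at 26.1, 87.3, 36.3 and 40.0 FPKM, and IFIT3 at 44.8, 148, 47.8 and 52.9 FPKM. In each of the 3, H-scr stood alone and the other 3 libraries lay far below it. IFIT5, at 11.4, 24.0, 12.0 and 10.4 FPKM, also had a single high library, and its hypoxia response was 1.07 [0.97, 1.19] in scrambled and -0.20 [-0.33, -0.08] in TET1-si cells. All 4 were at least 2-fold higher in H-scr than in N-scr and at least 2-fold lower in H-si than in H-scr, with a median of -1.34 for the latter. None was 2-fold changed in H-si against N-si or in N-si against N-scr.

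The loci of IFIT1, IFIT2 and IFIT3 lie within that of LIPA, a lysosomal lipase gene on the opposite strand. The reads are not stated to keep strand, and LIPA stood at 34.9, 93.8, 17.2 and 32.3 FPKM, also highest in H-scr. The share of reads that these genes have in common was not tested.

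OAS1, OAS2 and OAS3 make a messenger that activates RNase L when they meet double-stranded RNA, and OASL is a related protein without that activity. The 3 genes form a cluster on chromosome 12 (hg19, OAS1 at chr12:113344582-113369990, OAS3 at chr12:113376157-113411054 and OAS2 at chr12:113416200-113449528). OAS1 stood at 19.9 (N-scr), 218 (H-scr), 20.3 (N-si) and 43.3 FPKM (H-si). OAS2 stood at 7.47, 63.7, 4.96 and 11.3 FPKM, and OASL, farther along the chromosome, at 48.0, 200.1, 35.7 and 66.2 FPKM. In these 3 genes both hypoxic libraries were above their normoxic partners, with H-scr far above H-si. H-scr was 10.9-fold above N-scr for OAS1 and 8.52-fold for OAS2, while H-si was 2.14-fold and 2.28-fold above N-si.

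OAS3 had a different order, at 32.0 (N-scr), 100.3 (H-scr), 31.1 (N-si) and 14.6 FPKM (H-si). Its hypoxia response was 1.65 [1.60, 1.70] in scrambled and -1.08 [-1.16, -1.01] in TET1-si cells, and under hypoxia its level was 6.86-fold lower in TET1-si than in scrambled cells. All 4 OAS genes were at least 2-fold lower in H-si than in H-scr, with a median of -2.41, the lowest of the 10 roles. Under normoxia 0 of the 4 were changed by 2-fold.

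The IFITM genes encode small membrane proteins that stop viruses from fusing with the cell. They lie on chromosome 11 (hg19), and the IFITM1 locus (chr11:313506-315272) lies wholly within that of IFITM2 (chr11:307631-315272) on the same strand. IFITM1 stood at 63.0 (N-scr), 167 (H-scr), 29.3 (N-si) and 20.2 FPKM (H-si), the lowest H-si against H-scr value of all members (-3.05 [-3.27, -2.84]). IFITM2 went the other way after TET1-si, at 4.93, 13.0, 51.0 and 37.5 FPKM, and it was the member highest in N-si. The assignment of reads between these overlapping genes is uncertain, so their levels were also summed. The sum was 67.9 (N-scr), 180.3 (H-scr), 80.3 (N-si) and 57.6 FPKM (H-si). In the sum H-scr was highest and H-si lowest, and N-si lay somewhat above N-scr, unlike IFITM1 and far less than IFITM2. IFITM3, on the opposite strand at chr11:319669-321340, was the most abundant of the family, at 241, 318, 170 and 152 FPKM, and it was lower in both TET1-si libraries. IFITM3 has close copies in the genome, so its reads too are uncertain. It is not in the sum, which therefore does not settle how reads were shared within the family.

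**Figure D5:**
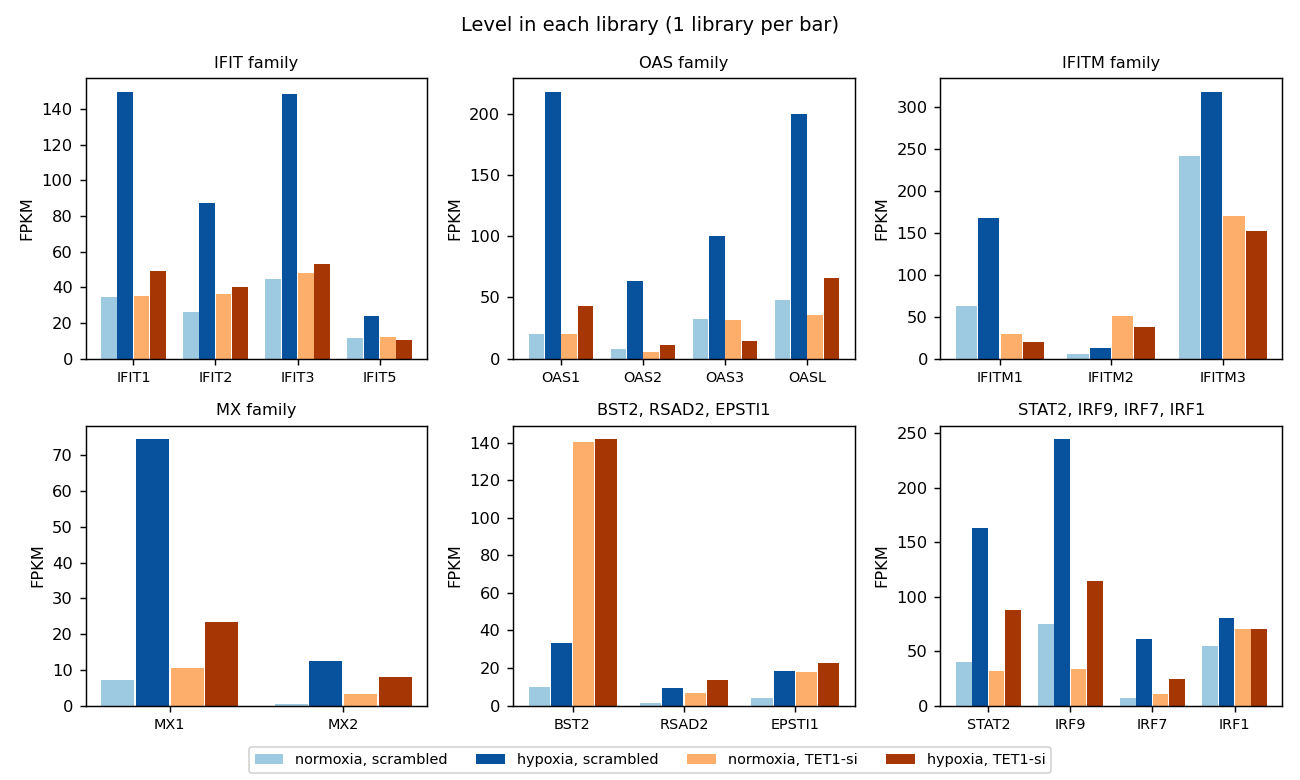
Level in FPKM of the members of 4 families and of 2 further sets in N-scr, H-scr, N-si and H-si, with 1 library per bar and no error bar. H-scr is the tallest bar in the IFIT and OAS families, whereas BST2 is at 10.1 and 33.5 FPKM in the scrambled libraries and at 140.5 and 142 FPKM in the TET1-si libraries.

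MX1 and MX2 encode dynamin-like proteins that block early steps of viral replication, and they are neighbours on chromosome 21 (hg19, MX2 at chr21:42733870-42781317 and MX1 at chr21:42792231-42831141). MX1 stood at 7.24 (N-scr), 74.6 (H-scr), 10.5 (N-si) and 23.3 FPKM (H-si). MX2 was scarce in N-scr and stood at 0.486 (N-scr), 12.5 (H-scr), 3.29 (N-si) and 7.91 FPKM (H-si). The ratio of H-scr to N-scr, 25.7-fold for MX2 and 10.3-fold for MX1, compared with ratios of 2.41-fold and 2.23-fold in TET1-si cells. For MX2 the hypoxia response in scrambled cells was 4.43 [4.22, 5.23] and the TET1-si response under normoxia 2.53 [2.26, 3.33]. Because N-scr was so low these differences, unlike their intervals, rest on the pseudocount. With a pseudocount of 1 in place of 0.1 the differences were 3.18 and 1.53, the former below the 3.39 of OAS1. For the 50 expressed genes nearest to the pair that are not members, the median of H-si against H-scr was 0.73 and that of N-si against N-scr 0.67, well above the all-gene medians of 0.10 and 0.15. Whether the chromosomal surroundings bear on the MX levels was not tested. A transcript on the other strand, AP001610.5, overlaps MX1, at 0.894, 11.6, 2.39 and 4.43 FPKM.

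Of the 7 other antiviral effectors all were at least 2-fold higher in H-scr than in N-scr. ISG20, a nuclease that degrades single-stranded RNA, stood at 16.9 (N-scr), 59.6 (H-scr), 13.2 (N-si) and 14.2 FPKM (H-si). It was the effector with the lowest H-si against H-scr value (-2.06 [-2.22, -1.92]), and its 2 TET1-si libraries did not differ beyond counting error. For the 50 genes around ISG20 the median was -0.85 in H-si against H-scr and -0.79 in N-si against N-scr.

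BST2, which encodes tetherin, a protein that holds budding virions at the cell surface, had the opposite pattern. It stood at 10.1 (N-scr), 33.5 (H-scr), 140.5 (N-si) and 142 FPKM (H-si). Both TET1-si libraries were above both scrambled ones, by 13.9-fold under normoxia (3.78 [3.58, 4.02]) and 4.23-fold under hypoxia (2.08 [1.96, 2.21]). In TET1-si cells its level did not differ between hypoxia and normoxia beyond counting error (0.02 [-0.06, 0.09]). The genes around BST2 had median TET1-si responses of 0.22 and 0.31, far below those of BST2 itself.

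RSAD2, which encodes viperin, and CMPK2, a mitochondrial nucleotide kinase, start close to each other on chromosome 2 in opposite directions, and their loci share 830 bp. RSAD2 stood at 1.33 (N-scr), 9.41 (H-scr), 6.58 (N-si) and 13.8 FPKM (H-si). CMPK2 stood at 1.54, 11.8, 5.75 and 8.75 FPKM. For both N-scr was the lowest library, with N-si 4.95-fold above it for RSAD2 and 3.74-fold for CMPK2. The pair parted under hypoxia, where TET1-si gave 0.55 [0.42, 0.70] for RSAD2 and -0.43 [-0.59, -0.28] for CMPK2.

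TRIM22, a ubiquitin ligase with antiviral activity, stood at 31.2 (N-scr), 100.2 (H-scr), 60.8 (N-si) and 139 FPKM (H-si), so that hypoxia and TET1-si each went with a higher level. The TRIM22 locus lies within that of TRIM5, on the other strand, which stood at 12.1, 21.4, 11.5 and 14.6 FPKM. SAMD9 stood at 19.7, 42.9, 16.4 and 27.0 FPKM and its neighbour SAMD9L at 5.17, 20.6, 4.63 and 12.6 FPKM. Both of these antiviral factors had a positive hypoxia response in each knockdown state, 1.43 [1.33, 1.57] for SAMD9L in TET1-si cells.

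PARP9 and PARP14, members of the ADP-ribosyltransferase family, showed much the same pattern as each other. PARP9 stood at 25.2 (N-scr), 69.3 (H-scr), 20.0 (N-si) and 29.1 FPKM (H-si), and PARP14 at 25.9, 62.9, 20.8 and 33.1 FPKM. In both, N-si was the lowest library and H-scr more than 2-fold above N-scr. Under normoxia the TET1-si response was -0.33 for PARP9 and -0.31 for PARP14, near the median of -0.26 of the 50 genes around them. Under hypoxia it was -1.25 and -0.92, and that median was again -0.26. PARP9 overlaps the start of DTX3L, its partner gene on the other strand, by 340 bp, and DTX3L stood at 24.9, 41.6, 26.1 and 27.2 FPKM.

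Of the 8 other induced genes 7 were at least 2-fold higher in H-scr than in N-scr and 4 at least 2-fold lower in H-si than in H-scr. IFI27, a mitochondrial protein gene often used as a marker of interferon exposure, stood at 46.1 (N-scr), 479 (H-scr), 17.4 (N-si) and 60.7 FPKM (H-si). IFI44L stood at 6.18, 57.7, 2.51 and 7.79 FPKM, and IFI6, which encodes a small membrane protein of the endoplasmic reticulum and mitochondria, at 13.6, 114.5, 8.06 and 21.3 FPKM. In all 3 the order from low to high was N-si, N-scr, H-si, H-scr. Under hypoxia TET1-si cells were 7.89-fold lower for IFI27, 7.41-fold for IFI44L and 5.38-fold for IFI6, and the hypoxia response remained at 1.80 [1.58, 2.04], 1.59 [1.45, 1.81] and 1.39 [1.09, 1.72] in TET1-si cells. IFI44, next to IFI44L on chromosome 1 with a gap of 6996 bp, was far more abundant and far less variable, at 160.4, 359.5, 131 and 225 FPKM.

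XAF1, a gene linked to apoptosis, stood at 1.89 (N-scr), 27.7 (H-scr), 5.74 (N-si) and 12.8 FPKM (H-si). H-si against H-scr was -1.10 and N-si against N-scr was 1.55, so that N-si and H-si both lay between N-scr and H-scr. EPSTI1, first described as a gene induced in epithelium by stroma, stood at 4.22, 18.4, 18.0 and 22.4 FPKM, with N-scr low and the other 3 libraries alike. The 50 genes around EPSTI1 and around XAF1 had median TET1-si responses of 0.54 and 0.53 under hypoxia and of 0.57 and 0.60 under normoxia. IFI35 stood at 21.6, 56.2, 34.7 and 48.0 FPKM. LGALS3BP, a secreted glycoprotein that binds galectins, was the most abundant member in 3 of the 4 libraries, at 308, 371, 498 and 546 FPKM. Its hypoxia response was the smallest in scrambled cells, at 0.27 [0.24, 0.30], and its level was higher in both TET1-si libraries. The TET1-si response of LGALS3BP was 0.56 under hypoxia and 0.69 under normoxia. The 50 genes around LGALS3BP had nearly the same values, with medians of 0.56 and 0.61. For H-scr against N-scr the median of these 50 genes was 0.21. A part of the surroundings in the LGALS3BP level was not tested.

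Many members are neighbours, and the surroundings of the families were read in the same way as for the MX genes. The 50 genes nearest to the IFIT cluster had a median of -0.30 in H-si against H-scr and -0.22 in N-si against N-scr, where the IFIT genes lay between -1.61 and -1.12 and between 0.01 and 0.47. For the genes near OAS1 the medians were -0.40 and -0.27, while OAS1 itself was at -2.33 and 0.03. Around SAMD9 and SAMD9L they were -0.35 and -0.31, close to the values of SAMD9 under normoxia (-0.27). Around IFI27 they were 0.25 and 0.49, opposite in sign to IFI27 (-2.98 and -1.40). For the hypoxia response in scrambled cells the surroundings of every member had a median between -0.16 and 0.22, below that of the member.

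Members with and without an ISRE in the window were set side by side. In scrambled cells 22 of the 24 members with an ISRE and 8 of the 10 without were at least 2-fold higher under hypoxia, against 12.9% of all genes. Under hypoxia 12 of the 24 with an ISRE were at least 2-fold lower after TET1-si and 1 was higher, with a median of -0.995, against 8.35% and 12% of all genes. Of the 10 without, 3 were lower and 0 were higher, with a median of -0.62. Of the 9 with no promoter entry 5 were lower. Since OAS1, at -2.33, has no match in the window and BST2, at 2.08, has a triple GAAA run, neither group was uniform.

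The rest of the pathway was read from lists of genes that are not members. Of 21 interferon genes 14 were listed at 0 in all 4 libraries and 0 reached a mean of 1 FPKM. IFNB1 rested on 1 read or none in each library. IL29, a type III interferon, stood at 0.338 (N-scr), 1.71 (H-scr), 0.0633 (N-si) and 0.207 FPKM (H-si), or about 4, 24, 1 and 3 reads. IL28B rested on about 2, 6, 0 and 0 reads. The type III ligands thus had their highest values in H-scr, at levels close to the limit of this depth.

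Of 6 receptor genes 1, IL28RA, was at least 2-fold higher in H-scr than in N-scr, and 1, IFNGR1, was at least 2-fold lower in H-si than in H-scr. In N-si against N-scr 2 of the 6, IL10RB and IFNAR2, were at least 2-fold higher. IL28RA, a chain of the type III receptor, stood at 0.925, 2.39, 1.41 and 1.31 FPKM. IFNAR1 stood at 67.9 (N-scr), 73.9 (H-scr), 81.8 (N-si) and 88.1 FPKM (H-si). IFNAR2 stood at 8.43, 10.0, 17.4 and 11.4 FPKM, and IL10RB, the partner chain of the type III receptor, at 26.3, 52.4, 57.5 and 76.7 FPKM. IFNGR1, the receptor of type II interferon, was lower after TET1-si, at 78.1, 108.5, 48.2 and 50.7 FPKM, and IFNGR2 stood at 37.8, 50.8, 34.3 and 37.5 FPKM.

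JAK2, the kinase that serves the type II receptor, was higher after TET1-si in both oxygen states, at 6.87 (N-scr), 11.3 (H-scr), 19.8 (N-si) and 27.0 FPKM (H-si).

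Among the 11 nucleic acid sensing genes at the minimum 1 was at least 2-fold higher in H-scr than in N-scr. This was TMEM173, which encodes the adaptor STING, at 12.8 (N-scr), 43.5 (H-scr), 17.1 (N-si) and 43.6 FPKM (H-si). IFI16, a DNA sensor, was the 1 gene of this list at least 2-fold lower in H-si than in H-scr, at 54.4, 100.4, 33.2 and 49.97 FPKM. Of the 3 brakes at the minimum, SOCS3 was at least 2-fold lower in H-si than in H-scr, at 7.36, 6.75, 5.11 and 2.82 FPKM, and PTPN6, a phosphatase, at least 2-fold higher, at 17.7, 30.4, 44.8 and 67.0 FPKM.

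Antigen presentation genes, also targets of interferon, did not move with the members, and 0 of 10 were at least 2-fold higher in H-scr than in N-scr. TAP1, the peptide transporter subunit, was the 1 gene of the 10 that was at least 2-fold lower in H-si than in H-scr, at 41.5, 65.9, 27.2 and 23.2 FPKM. By contrast, of 8 targets biased to type II interferon, all 5 at the minimum were at least 2-fold higher in H-scr than in N-scr. These were GBP1, GBP2, GBP3 and the chemokine genes CXCL10 and CXCL11. The 2 chemokine genes reached the minimum only through their H-scr level. They were also the 2 of the 5 that were at least 2-fold lower in H-si than in H-scr. CXCL9, IDO1 and CIITA, below the minimum, were under 2-fold in H-scr against N-scr (0.34, 0.15 and 0.80). CXCL10 stood at 0.998 (N-scr), 6.82 (H-scr) and 0.127 FPKM (N-si) with H-si listed at 0, or about 22, 161, 3 and 0 reads. CXCL11 stood at 1.16, 3.24, 0.292 and 0.0319 FPKM, or about 34, 101, 9 and 1 reads.

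The identity of the cells was read from marker lists. All 7 epithelial markers were above 0 in each library, with sums of 6372 (N-scr), 8266 (H-scr), 2155 (N-si) and 3854 FPKM (H-si), so that both TET1-si libraries were lower. KRT5, KRT8 and KRT18 were at least 2-fold lower after TET1-si in both oxygen states. CDH1 (0.45 in H-si against H-scr and 0.57 in N-si against N-scr), EPCAM (0.68 and 0.41) and JUP (0.27 and 0.50) were above 0 in both, and KRT19 was at 0.22 and -0.77. Leukocyte markers summed to 24.1, 24.1, 31.0 and 32.6 FPKM over 10 genes, with CD3D, CD3E and MS4A1 at 0 in all 4 libraries and PTPRC at 0 in all but H-si, where it rested on 1 read. Fibroblast markers summed to 5.30, 28.7, 14.05 and 37.2 FPKM, nearly all of it COL1A1, with COL1A2 and LUM at 0 in all 4 libraries. Of the 2 endothelial markers found, VWF and CDH5, the sums were 8.91, 17.8, 22.2 and 48.4 FPKM. In a bulk library, fewer cells of a type and less RNA per cell cannot be told apart. The part of these shifts in the levels of the members was not tested.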

How the data were processed

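RNA-Seq of 4 FaDu libraries, 1 per group, was analysed from the FPKM table deposited by the authors, which holds 1 column per library and no column of comparisons. Per the labels and the study's methods, mRNA libraries (TruSeq) were read at 100 bp on a HiSeq sequencer (Illumina), aligned to hg19 with TopHat and quantified with Cufflinks on Ensembl annotations, and the submitters' processing notes name the same tools and build. Versions, filters and strand are not given in the sources used here. The labels call the reads single-end and the methods call them paired-end, so a recovered read may be a fragment.

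Differences were computed as log2(FPKM + 0.1), a scale that understates the change of low genes, over 15057 genes with a mean of at least 1 FPKM. With 1 library per group no test across genes was run. Rows whose gene ID stands on several rows (111 IDs, 232 rows) were left out, apart from the inequalities, which used all rows. Depth was recovered from 4395 genes with 1 exon by searching for the depth and length offset (median 212 bp) that make low values whole reads. Within a tolerance of 0.05, 97.0% to 98.1% of low values came out whole. Reads per gene used the canonical transcript length of GENCODE v44lift37, which holds 86.3% of row IDs and all 43 members, so intervals are approximate where other transcripts dominate. Intervals are exact (Clopper-Pearson), at 95%, and cover counting error only. The script was tested on simulated data.

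The 43 members, the roles and the pathway and marker lists were chosen with earlier results of these data known. All members are named by role. Of the other lists, up to 2 genes with the largest change were named, with all receptors, and 1 further gene is not reported here. Surroundings of a gene are the 50 nearest expressed protein-coding genes that are not members. Gene coordinates are hg19 as in the deposited table (start counted from 1), and motif coordinates are GRCh38.p14 from RefSeq. Alternatives were other pseudocounts, minimums, fold limits, the counting interval as a further criterion, and median-of-ratios, upper-quartile and TPM scaling. Analyses used Python 3.11.15 with numpy 2.4.6, pandas 2.3.3, scipy 1.17.1 and matplotlib 3.10.9.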

Additional observations from a re-analysis of the deposited data

Results flagged for a closer look

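For 13 members the same contrast pointed in opposite directions in 2 states, with counting intervals that exclude 0 on both sides and a size of at least 1 on the log2 scale in one of them. The share of all genes that meet this rule was not computed, so the count of 13 cannot be called high or low. With 1 library per group the difference between the states was not tested.

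For 9 members this concerned the TET1-si response. MX2 was at -0.65 under hypoxia and 2.53 under normoxia, and its neighbour MX1 at -1.68 and 0.52. XAF1 was at -1.10 and 1.55, CMPK2 at -0.43 and 1.84, and the helicase gene DDX60 at -0.18 and 1.03. IRF7, the amplifier of interferon production, was at -1.33 and 0.58, and the ISG15 protease gene USP18 at -1.18 and 0.30. IFIT2 was at -1.12 and 0.47, and IFIT3 at -1.49 and 0.09, where the normoxia value of IFIT3 turned below 0 under median-of-ratios and upper-quartile scaling. In every one of these 9 the response was negative under hypoxia and positive under normoxia.

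For the other 4 members it concerned the hypoxia response. OAS3 was at 1.65 in scrambled and -1.08 in TET1-si cells, and IFIT5 at 1.07 and -0.20. IFITM1 was at 1.41 and -0.54 and IFITM2 at 1.38 and -0.44, and since these loci overlap they are not independent of each other.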

How the results depend on the processing

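Directions of the group medians held under every alternative. The median of H-scr against N-scr moved from 1.74 to 1.62 under median-of-ratios scaling and to 1.85 as TPM, that of H-si against N-si from 0.61 to 0.75 as TPM, that of H-si against H-scr from -0.90 to -1.04 (median-of-ratios) and -1.01 (upper quartile), and that of N-si against N-scr from 0.30 to 0.14 and 0.13. Members at least 2-fold higher in H-si than in N-si numbered 15, and 23 at 1.5-fold and 3 at 3-fold. The 1 lower member, OAS3, was lost as TPM (0 members) and at 3-fold (0 members). At 3-fold, 27 in place of 39 members were higher in H-scr than in N-scr. At the same limit 11 in place of 20 members were lower in H-si than in H-scr, 1 in place of 2 was higher, and 0 in place of 4 were lower in N-si than in N-scr. Leaving out the overlapping IFITM1 and IFITM2, chosen after seeing the data, left 1 member, BST2, higher in H-si than in H-scr. The 3 inequalities were met by 17 in place of 11 members under median-of-ratios scaling, and the cause was not tested. Of the group results 114 stayed within their limits, the count of 27 at 3-fold among them. Of 860 values for single members 599 did, 261 moved and 0 of those past 2-fold changed sign.

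Scaling changes the balance over all genes. Among genes past 2-fold, the share that was higher was 73.96% for H-scr against N-scr (64.2% median-of-ratios, 82.8% TPM), 59.1% for H-si against N-si (51.4% and 69.1%), 59.0% for H-si against H-scr (47.0% and 64.5%, and 50.02% by upper quartile) and 68.6% for N-si against N-scr (56.0% and 72.1%, and 55.6% by upper quartile). The all-gene medians, 0.05, 0.03, 0.10 and 0.15 as deposited, became 0.16, 0.16, 0.17 and 0.20 as TPM and -0.06, -0.05, -0.03 and 0.00 by median-of-ratios. Small member differences changed sign with scaling, namely IRF1 and BST2 in H-si against N-si, and IFIT1, IFIT3, IFIT5, OAS1 and OAS3 in N-si against N-scr. Depth limits the interferon genes and TET1, which rested on few reads, more than the members. No paired analysis was possible because each group has 1 library.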
